A study of Mus musculus with 12 samples.

Results

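Nobox, Figla, Sohlh1, Sohlh2, Lhx8, Taf4b, Pou5f1, Tbpl2 and Gtf2a1l are the oocyte transcription factor genes described here. They were chosen by symbol, matched to the Ensembl IDs of GENCODE mouse M21 (GRCm38), and make up 9 of the 55573 genes counted in each of 12 libraries. All 9 IDs were found in every library. The rule uses no measured value.

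Single mouse oocytes were sequenced to examine normalization with ERCC RNAs, a spike-in mix of 92 synthetic poly(A) RNAs added in a known amount. The cycle libraries came from 6 whole oocytes, with cDNA amplified for 10, 14 or 18 cycles and 2 oocytes at each cycle number. The fraction libraries, 2 each, came from 1/2, 1/4 and 1/8 of an oocyte. The methods state that lysates from 2 oocytes were diluted to make them and that 18 cycles were used. The whole oocytes at 18 cycles were the reference for the fractions. All oocytes were fully grown and at the germinal vesicle (GV) stage, the arrested stage before the nuclear envelope breaks down. The methods name a single healthy B6D2F1 female of 12 weeks as the source, so the oocytes may share 1 donor. They were kept in M2 medium, with milrinone, which holds the arrest, according to the methods. The methods place the addition of the same amount of ERCC mix after dilution. Poly(A) RNA was captured with oligo-dT beads, and Nextera libraries were sequenced. The labels list no genotype or treatment that differs between the groups. They do not say which fraction came from which oocyte. The cycle number cannot be told apart from the oocyte or its preparation. Nor can the fraction in comparisons with whole oocytes, which were other oocytes.

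Counts on genes were 11597144 and 9189672 at 10 cycles, 12349577 and 13806199 at 14 cycles, with 3017069 and 1706478 at 18 cycles. They were 4024670 and 3598549 in the 1/2 fractions, 4027907 and 5049518 in the 1/4 fractions, with 11404262 and 1702062 in the 1/8 fractions. Among whole oocytes, depth was lowest at 18 cycles, and the shallowest libraries were replicate 2 of the whole oocytes at 18 cycles and replicate 2 of the 1/8 fractions. The part of depth in the results was not tested. ERCC counts were 35852 and 25528 at 10 cycles, 35616 and 39046 at 14 cycles, with 1611 and 1474 at 18 cycles. In the fractions they were 9167 and 10467 for 1/2, 18802 and 29075 for 1/4, with 231470 and 36593 for 1/8. Levels are given as CPM, a gene's count per 1000000 counts on genes, in the order replicate 1 and replicate 2.

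Oocytes grow within follicles while transcribing the store of RNA that later carries the first divisions of the embryo, and transcription is largely silent by the end of growth. NOBOX, FIGLA, LHX8, SOHLH1 and SOHLH2 are DNA-binding proteins that start and maintain the gene program of early follicles. TBPL2, GTF2A1L and TAF4B are germ cell or gonad counterparts of general transcription factors that help RNA polymerase II start at promoters.

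The cell type was examined with 3 marker lists. All 8 oocyte markers had counts in every library. Their summed level was 17865 and 16209 CPM at 10 cycles, 18257 and 19358 at 14 cycles, 10506 and 9266 at 18 cycles, 13700 and 11809 in 1/2, 16071 and 15969 in 1/4, with 15923 and 15209 in 1/8. Gdf9, which encodes an oocyte growth factor, had the highest mean of them over the 12 libraries, and Zar1 was the highest at 18 cycles and in 1/2 and 1/4. The 12 granulosa and cumulus markers summed to 144 and 86.4 CPM at 10 cycles, 106 and 158 at 14 cycles, 69.6 and 26.4 at 18 cycles, 34.0 and 31.7 in 1/2, 58.6 and 60.2 in 1/4, with 79.2 and 72.3 in 1/8. Nr5a2 was the most abundant of these except in 1/8, where Cyp19a1 was, and between 0 and 6 of the 12 were at 0 in a library. The 10 markers of other ovary cells summed to 80.1 and 46.9 CPM at 10 cycles, 49.5 and 61.5 at 14 cycles, 10.6 and 16.4 at 18 cycles, 13.7 and 13.9 in 1/2, 15.6 and 28.5 in 1/4, with 30.6 and 29.4 in 1/8. Pecam1 was the most abundant, Hba-a1 of red blood cells was at 0 in all 12 libraries, and Hbb-bs and the leukocyte gene Ptprc had 2 counts each over all libraries. The part of these sums in the results was not tested.

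Per kilobase of merged exons, the order of the mean levels over the 12 libraries was Nobox (162 CPM per kilobase), Pou5f1 (97.5), Figla (68.2), Lhx8 (67.5), Gtf2a1l (43.9), Taf4b (16.1), Tbpl2 (6.995), Sohlh2 (2.96) and Sohlh1 (0.330). Figla and Lhx8 swapped places when the longest annotated transcript or the principal transcript gave the length, the latter a choice made after seeing the data. The order changed between groups. At 10 cycles Nobox stood first at 223 ± 13.4 CPM per kilobase (SD, n = 2) and Pou5f1 next at 64.7 ± 0.97 (SD, n = 2), with libraries that did not overlap. At 14 cycles Nobox was again first at 287 ± 12.3 (SD, n = 2), ahead of Gtf2a1l at 81.2 ± 1.82 (SD, n = 2). In whole oocytes at 18 cycles Pou5f1 was first at 137 ± 0.56 (SD, n = 2), with Nobox below it and below Lhx8 at 74.6 ± 7.04 (SD, n = 2), overlapping with Lhx8 above and Figla below. Pou5f1 was also first in 1/2, at 146 ± 20.03 (SD, n = 2). Nobox was there at 74.6 ± 8.48 (SD, n = 2), below Figla and Lhx8 and overlapping with both. Nobox was first again in 1/4, at 126 ± 8.54 (SD, n = 2), and in 1/8, at 184 ± 38.0 (SD, n = 2), in both cases with no overlap with Pou5f1. With the longest or the principal transcript as the length, Pou5f1 came first in 1/4, at 154 ± 8.36 against 134 ± 9.08 for Nobox, and next after Nobox at 14 cycles, ahead of Gtf2a1l (SD, n = 2, no overlap). In whole oocytes at 18 cycles Nobox then lay below Lhx8 without overlap. In 1/2, Lhx8 then stood ahead of Figla, overlapping with the longest transcript and not with the principal one. At 14 cycles Figla was ahead of Lhx8 with merged exons, at 62.8 against 55.9 CPM per kilobase, without overlap. With the principal transcript Lhx8 was ahead there, at 81.8 against 69.1, also without overlap. It was ahead in 1/4 too with the principal transcript, with overlap. At 10 cycles the order of Figla, Gtf2a1l and Lhx8 changed with the length, with overlap. With merged exons, the other neighbours in the order whose libraries overlapped were Figla, Gtf2a1l and Lhx8 at 10 cycles, Taf4b and Tbpl2 at 10 cycles, 14 cycles and in 1/8, and Figla and Lhx8 in 1/2. They were also Gtf2a1l and Taf4b at 18 cycles and in 1/4, Tbpl2, Sohlh2 and Sohlh1 at 18 cycles, Pou5f1 and Figla in 1/4, and Pou5f1, Lhx8 and Figla in 1/8.

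**Figure D1:**
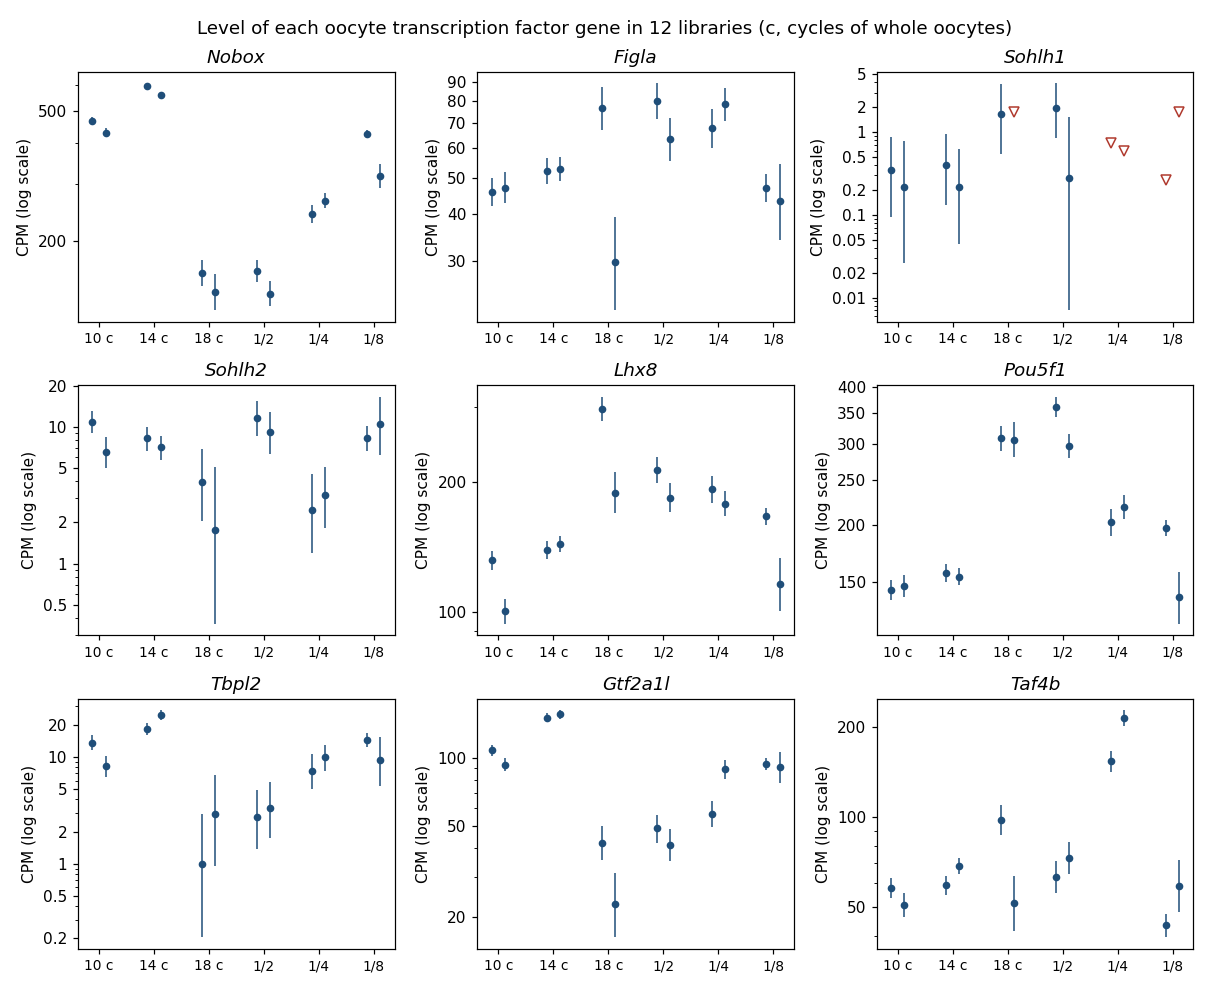
Level of each of the 9 genes in 12 libraries, in CPM on a log axis, with 2 points per group for whole oocytes at 10, 14 and 18 cycles (10 c, 14 c, 18 c) and for 1/2, 1/4 and 1/8 of an oocyte. Bars are 95% Poisson intervals of the counts, and open triangles mark the level that 3 counts would give where a library had 0. Nobox lay between 138 and 162 CPM in whole oocytes at 18 cycles and in 1/2, and between 430 and 596 CPM at 10 and 14 cycles.

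Some of these genes, like many others, differed in level between whole oocytes at 18 cycles and those at 10 and 14 cycles. Of the 9 members, 2 were higher at 18 cycles than at 10 and 3 were lower (edgeR, Benjamini-Hochberg adjusted p under 0.01), where 12.3% of the 17532 genes tested were higher and 10.8% lower. Against 14 cycles, again 2 were higher and 3 lower, where 12.6% of genes were higher and 10.7% lower. Lhx8 and Pou5f1 were the higher ones, and the lower ones were Nobox, Tbpl2 and Gtf2a1l, in both comparisons, which share the 18-cycle libraries. Shares over all genes were larger among the 9073 genes with at least 10 counts in every library of the fit. Of these, 22% were higher and 22.4% lower against 10 cycles, and 21.7% and 22.1% against 14 cycles. Under ERCC size factors, 4 members (Figla, Lhx8, Taf4b and Pou5f1) were higher at 18 cycles and 0 lower in either comparison, where 47.6% and 47.9% of genes were higher against 10 and 14 cycles. In that scaling Nobox, Sohlh2 and Gtf2a1l changed sign, and the median of all genes was 1.96 against 10 cycles and 1.97 against 14 cycles. With median-ratio size factors the median of all genes was -0.29 in both. The members called at 18 against 10 cycles numbered between 2 (without replicate 2 at 10 cycles) and 7 (without replicate 2 at 18 cycles) when 1 library was left out, and against 14 cycles between 2 (without replicate 2 at 14 cycles) and 6 (without replicate 2 at 18 cycles). Over all genes, 4054 were called at 18 against 10 cycles, which fell to 1905 and 1617 without replicate 1 or 2 at 10 cycles. Against 14 cycles 4080 were called, which fell to 1834 and 1811 without replicate 1 or 2 at 14 cycles. Between 14 and 10 cycles, edgeR called 0 members and 0% of genes higher and 0% lower. At an unadjusted p under 0.05 there were 513 of 17532 genes (2.93%) and 2 members (Tbpl2 and Gtf2a1l), and DESeq2 called 1 gene higher and 1 lower, neither a member.

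In the fractions, the number of members called depended on the scaling and on the reference. With median-ratio size factors, 0 members changed in 1/2 or 1/4 against whole oocytes at 18 cycles. In 1/2, 0.0811% of 14788 genes were higher and 0.0406% lower, and in 1/4, 0.0338% were higher and 0.426% lower. At an unadjusted p under 0.05 in edgeR, 1 member stood in 1/2 (Sohlh2) and 5 in 1/4 (Nobox, Pou5f1, Taf4b, Tbpl2 and Gtf2a1l), where 13.1% and 15.8% of genes stood. DESeq2 also called 0 members in both. In 1/8, 2 members were higher (Nobox and Gtf2a1l) and 1 lower (Pou5f1), where 6.96% of genes were higher and 8.71% lower. The number was 0 without replicate 1 or 2 of the whole oocytes or of 1/4, 1 without replicate 1 or 2 of 1/8, and 2 without replicate 1 or 2 of 1/2. These 3 comparisons share the whole oocytes at 18 cycles, which are also in the cycle comparisons. The comparison of 1/8 with the other fractions was chosen after seeing the data, and it does not use the whole oocytes as a control. Against 1/2, 1 member was higher (Nobox) and 1 lower (Pou5f1), where 2.07% of genes were higher and 3.88% lower, and against 1/4, 0 were higher and 1 lower (Taf4b), where 1.54% of genes were higher and 3.43% lower. The number against 1/2 was 0 without any 1 of the 6 fraction libraries, and that against 1/4 was 0 without replicate 2 of 1/4 or replicate 1 of 1/8. Under ERCC size factors 8 members were lower against 1/2 (Sohlh1 among them, with 0 counts in 1/8) and 6 against 1/4, where 71.8% and 60.2% of genes were lower, with 0 higher, and Nobox, Gtf2a1l and Tbpl2 changed sign in both, and Sohlh2 against 1/4. Whole oocytes at 10 and 14 cycles as the reference, with median-ratio size factors, gave 5 members in 1/2 (2 higher, 3 lower), 2 in 1/4 (1 higher, 1 lower) and 0 in 1/8 (edgeR, Benjamini-Hochberg adjusted p under 0.01), where 21.1%, 13.8% and 0% of genes were called. In 1/8, 0 of 18041 genes were called, with 2865 genes and 0 members at an unadjusted p under 0.05, and Nobox (-0.39), Gtf2a1l (-0.35) and Pou5f1 (0.24) changed sign.

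Single libraries also moved the counts over all genes. In 1/2 the 18 genes called became 31 without replicate 1 of the whole oocytes, 3 without replicate 2 of the whole oocytes, and 0 without replicate 1 of 1/2 or replicate 1 of 1/8. In 1/4 the 68 became 104 and 0 without replicate 1 or 2 of the whole oocytes, and 18 without replicate 1 or 2 of 1/4. In 1/8 the 2317 became 1096 without replicate 1 of the whole oocytes and 1310 without replicate 2 of 1/8. For 1/8 against 1/2, the 880 became 83 and 369 without replicate 1 or 2 of 1/2, and 520 and 198 without replicate 1 or 2 of 1/8. For 1/8 against 1/4, the 735 became 102 and 330 without replicate 1 or 2 of 1/4, and 444 and 158 without replicate 1 or 2 of 1/8.

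Counts on genes per ERCC count were 323 and 360 at 10 cycles, 347 and 354 at 14 cycles, with 1873 and 1158 at 18 cycles. They were 439 and 344 in 1/2, which overlapped with whole oocytes at 10 and 14 cycles, 214 and 174 in 1/4, with 49.3 and 46.5 in 1/8. When size factors came from the ERCC counts, 6 of 9 members were lower in 1/2, where 52% of genes were lower and 0% higher. In 1/4, 8 were lower, where 69.7% of genes were lower and 0% higher. In 1/8, 8 were lower, where 87.5% were lower and 0% higher. Both counts of 8 include Sohlh1, which had 0 counts in 1/4 and 1/8. It passed the filter only through libraries where it was high, so its call says little. The median log2 fold change of all genes was -2.00, -2.69 and -4.92. With whole oocytes at 10 and 14 cycles as the reference and the same scaling, these medians were -0.13, -0.85 and -2.84. In 1/2 there were then 1890 genes higher and 676 lower (14.2% in all), with Pou5f1 turned to 1.58 and called higher and Nobox lower (-1.32). In 1/4 Nobox alone of the members was called (-1.53), where 12.5% of genes were, and in 1/8, 8 members were lower, where 77.8% of genes were, without Sohlh1 (edgeR, Benjamini-Hochberg adjusted p = 0.0127). Without replicate 1 of the whole oocytes, where Sohlh1 then had 0 counts, the members called were 0 in 1/2, 3 in 1/4 and 6 in 1/8. Without replicate 2 of 1/2 they were 0 in 1/2, and without replicate 1 or 2 of 1/4 they were 4 in 1/4. Over all genes, the 7697 called in 1/2 became 3081 without replicate 1 of the whole oocytes and 1930 without replicate 2 of 1/2, and the 10301 called in 1/4 became 6703 without replicate 2 of 1/4.

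Nobox (ENSMUSG00000029736, chr6:43303674-43309554) encodes an oocyte homeobox protein needed for follicles to grow beyond the primordial stage. It was at 468 and 430 CPM at 10 cycles, 596 and 561 at 14 cycles, with 160 and 140 at 18 cycles. The fractions had 162 and 138 CPM in 1/2, 242 and 266 in 1/4, with 425 and 317 in 1/8. All libraries at 10 and 14 cycles lay above all fractions and whole oocytes at 18 cycles, and the 1/4 and 1/8 libraries lay above those of 1/2 and of whole oocytes at 18 cycles. The log2 fold change at 18 against 10 cycles was -1.31 ± 0.19 (SE, edgeR, Benjamini-Hochberg adjusted p = 0.000503), and against 14 cycles -1.65 ± 0.19 (SE, edgeR, Benjamini-Hochberg adjusted p = 0.000166). Relative to the median of all genes these were -1.03 and -1.36, and with ERCC size factors, where the sign turned to 0.94 and 0.62, they were -1.02 and -1.35 relative to that median. Both calls held in 6 of 6 fits with 1 library left out. In 1/8 against whole oocytes Nobox had a log2 fold change of 1.11 ± 0.28 (SE, edgeR, Benjamini-Hochberg adjusted p = 0.00499), and with ERCC size factors it was -3.85, or 1.07 above the median of all genes. This call was lost without replicate 1 or 2 of the whole oocytes, replicate 1 or 2 of 1/4, or replicate 1 of 1/8, with edgeR and Benjamini-Hochberg adjusted p between 0.0113 and 0.0413 and log2 fold changes between 0.89 and 1.11. Against 1/2 the log2 fold change was 1.14 ± 0.27 (SE, edgeR, Benjamini-Hochberg adjusted p = 0.00809), and with ERCC size factors -1.85. It passed the threshold in 2 of 8 fits with 1 library left out, those without a whole oocyte. Without any 1 of the 6 fraction libraries the edgeR and Benjamini-Hochberg adjusted p lay between 0.0132 and 0.0752 and the log2 fold changes between 0.93 and 1.34.

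Pou5f1 (ENSMUSG00000024406, chr17:35506018-35510772) encodes OCT4, a POU-domain protein known for pluripotency that is also present in oocytes. It was at 144 and 147 CPM at 10 cycles, 157 and 154 at 14 cycles, with 308 and 306 at 18 cycles. The fractions had 361 and 297 CPM in 1/2, 202 and 218 in 1/4, with 197 and 139 in 1/8. Oocytes at 18 cycles and 1/2 held the high values, with no overlap with the other groups. At 18 cycles it was higher by 1.35 ± 0.19 log2 units than at 10 cycles (SE, edgeR, Benjamini-Hochberg adjusted p = 0.000438) and by 1.29 ± 0.19 than at 14 cycles (SE, edgeR, Benjamini-Hochberg adjusted p = 0.000532), with 3.57 and 3.53 under ERCC size factors, or 1.61 and 1.56 above the medians of all genes. The first call held in 6 of 6 fits with 1 library left out. The other was lost without replicate 1 or 2 at 14 cycles, with log2 fold changes of 1.32 and 1.27 and edgeR and Benjamini-Hochberg adjusted p of 0.0115 and 0.0138. In 1/8 against whole oocytes the log2 fold change was -1.07 ± 0.28 (SE, edgeR, Benjamini-Hochberg adjusted p = 0.00668), with -6.01 under ERCC size factors, and with TMM size factors the adjusted p was 0.0125. It was also past the threshold in no more than 3 of 8 fits with 1 library left out. Without replicate 1 or 2 of the whole oocytes, replicate 1 or 2 of 1/4, or replicate 2 of 1/8, the edgeR and Benjamini-Hochberg adjusted p lay between 0.0134 and 0.0749 and the log2 fold changes between -1.15 and -0.83. Against 1/2 the log2 fold change was -1.13 ± 0.28 (SE, edgeR, Benjamini-Hochberg adjusted p = 0.00920), and -4.12 under ERCC size factors. The adjusted p was 0.0146 under TMM and between 0.0136 and 0.101 without any 1 of the 6 fraction libraries (edgeR, Benjamini-Hochberg), with log2 fold changes between -1.39 and -0.90. An antisense gene, Gm19553, overlaps 14.1% of the exon bases of Pou5f1, so part of its counts depends on the strand setting of the counting, which is not settled.

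The count of Nobox per count of Pou5f1 within a library needs no size factor. It was 3.26 and 2.93 at 10 cycles, 3.80 and 3.65 at 14 cycles, with 0.519 and 0.457 at 18 cycles. In the fractions it was 0.449 and 0.464 in 1/2, 1.196 and 1.22 in 1/4, with 2.16 and 2.28 in 1/8. Whole oocytes at 18 cycles and 1/2 lay under 1 and overlapped, and all other libraries lay above 1, with 1/4, 1/8, 10 and 14 cycles each in its own range.

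Lhx8 (ENSMUSG00000096225, chr3:154306294-154330659) encodes a LIM-homeobox protein that acts in primordial follicles. It was at 132 and 100 CPM at 10 cycles, 139 and 144 at 14 cycles, with 296 and 189 at 18 cycles. The fractions had 214 and 184 CPM in 1/2, 193 and 178 in 1/4, with 167 and 116 in 1/8. The 18-cycle oocytes were above those at 10 and 14 cycles without overlap, and their range overlapped with those of 1/2 and 1/4. The log2 fold change was 1.33 ± 0.22 against 10 cycles (SE, edgeR, Benjamini-Hochberg adjusted p = 0.00111) and 1.07 ± 0.22 against 14 cycles (SE, edgeR, Benjamini-Hochberg adjusted p = 0.00359), with 3.65 and 3.40 under ERCC size factors, or 1.70 and 1.42 above the medians of all genes. The first call was lost without replicate 2 at 10 cycles, with 1.18 and an edgeR and Benjamini-Hochberg adjusted p of 0.0210. The other was lost without replicate 1 or 2 at 14 cycles or replicate 1 at 18 cycles, with log2 fold changes of 1.06, 1.09 and 0.83 and edgeR and Benjamini-Hochberg adjusted p between 0.0141 and 0.0409. For 1/8 against whole oocytes it was -0.97 ± 0.29 (SE, edgeR, Benjamini-Hochberg adjusted p = 0.0166), and DESeq2 gave a Benjamini-Hochberg adjusted p of 0.00636.

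Figla, Sohlh1 and Sohlh2 encode basic helix-loop-helix proteins. FIGLA is needed for primordial follicles to form and activates zona pellucida genes, and the SOHLH proteins act before and during the start of follicle growth. Figla (ENSMUSG00000030001, chr6:86016171-86020996) was at 46.0 and 47.1 CPM at 10 cycles, 52.1 and 52.8 at 14 cycles, with 76.6 and 29.9 at 18 cycles. It was at 80.0 and 63.4 CPM in 1/2, 67.8 and 78.4 in 1/4, with 46.9 and 43.5 in 1/8. The 18-cycle libraries were the highest and the lowest of the whole oocytes, on either side of the other 4, and no comparison with median-ratio size factors passed the threshold. At 18 against 10 cycles the log2 fold change was 0.46 ± 0.32 (SE, edgeR, Benjamini-Hochberg adjusted p = 0.275). Without replicate 2 at 18 cycles it was 0.94 (edgeR, Benjamini-Hochberg adjusted p = 0.00718), and without replicate 1 it was -0.27. Under ERCC scaling it was 2.82 (edgeR, Benjamini-Hochberg adjusted p = 7.6e-05), which is 0.86 above the median of all genes.

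Sohlh2 (ENSMUSG00000027794, chr3:55182028-55209957) was detected in all 12 libraries with 621 counts in all. It was at 10.95 and 6.53 CPM at 10 cycles, 8.26 and 7.10 at 14 cycles, with 3.98 and 1.76 at 18 cycles, where it had 12 and 3 counts. It was at 11.7 and 9.17 CPM in 1/2, 2.48 and 3.17 in 1/4, with 8.33 and 10.6 in 1/8. The 18-cycle oocytes and 1/4 were low and overlapped, and all other libraries were above them. The log2 fold change at 18 against 10 cycles was -1.27 ± 0.52 (SE, edgeR, Benjamini-Hochberg adjusted p = 0.0838), with 1.07 under ERCC size factors. In 1/2 against whole oocytes it was 1.77 ± 0.67 (SE, edgeR, Benjamini-Hochberg adjusted p = 0.224), with -0.25 under ERCC size factors.

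Sohlh1 (ENSMUSG00000059625, chr2:25842995-25847248) had 28 counts over the 12 libraries. There were 4 and 2 counts at 10 cycles, 5 and 3 at 14 cycles, with 5 and 0 at 18 cycles. There were 8 and 1 counts in 1/2, and 0 in all 4 libraries of 1/4 and 1/8. The 0 counts allow up to 1.76 CPM in replicate 2 at 18 cycles, 0.745 and 0.594 in 1/4, with 0.263 and 1.76 in 1/8. The levels where counted ran from 0.217 to 1.99 CPM. With median-ratio size factors Sohlh1 was called in no comparison. ERCC scaling put it among the members called lower in 1/4 and 1/8 against whole oocytes, calls that rest on 5 and 0 counts in the whole oocytes, and in 1/8 against 1/2, on 8 and 1 counts. It passed the filter of the fraction fit only through replicate 1 of the whole oocytes and replicate 1 of 1/2, so these calls could not be examined without either of them. In 1/4 its call was lost without replicate 1 or replicate 2 of 1/4, with edgeR and Benjamini-Hochberg adjusted p of 0.0256 and 0.0385. It was also lost with DESeq2, the replicate block, and whole oocytes at 10 and 14 cycles as the reference (Benjamini-Hochberg adjusted p = 0.0111, 0.0246 and 0.192, the last 2 by edgeR).

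TBPL2, also called TRF3 or TBP2, takes the place of the TATA-binding protein TBP in growing oocytes. Tbpl2 (ENSMUSG00000061809, chr2:24071721-24096595) was at 13.6 and 8.16 CPM at 10 cycles, 18.2 and 24.6 at 14 cycles, with 0.994 and 2.93 at 18 cycles, where it had 3 and 5 counts. It was at 2.73 and 3.33 CPM in 1/2, 7.45 and 9.90 in 1/4, with 14.4 and 9.40 in 1/8. The 18-cycle oocytes and 1/2 overlapped at the low end, and each library of 1/4 and 1/8 was above both. The log2 fold change was -2.36 ± 0.59 against 10 cycles (SE, edgeR, Benjamini-Hochberg adjusted p = 0.00972) and -3.31 ± 0.57 against 14 cycles (SE, edgeR, Benjamini-Hochberg adjusted p = 0.00134). Under ERCC scaling they were -0.12 and -1.09, or 2.08 and 3.06 below the medians of all genes, and neither passed the threshold. The call against 10 cycles was lost without replicate 1 or 2 at 10 cycles, replicate 1 or 2 at 14 cycles, or replicate 1 at 18 cycles, with log2 fold changes between -2.66 and -1.52 and edgeR and Benjamini-Hochberg adjusted p between 0.0154 and 0.106. The call against 14 cycles was lost without replicate 2 at 14 cycles (-3.05, adjusted p = 0.01004 by edgeR and Benjamini-Hochberg) and without replicate 1 at 18 cycles (-2.46, adjusted p = 0.0174). In 1/4 and 1/8 against whole oocytes the log2 fold changes were 2.10 ± 0.74 and 2.53 ± 0.74 (SE, edgeR, Benjamini-Hochberg adjusted p = 0.156 and 0.0139), with -0.57 and -2.33 under ERCC size factors.

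Tbp, the widely expressed counterpart, was at 160 and 135 CPM at 10 cycles, 160 and 159 at 14 cycles, with 236 and 212 at 18 cycles. It was at 453 and 361 CPM in 1/2, 311 and 278 in 1/4, with 216 and 189 in 1/8. Its highest levels were in 1/2, and the log2 fold change at 18 against 10 cycles was 0.87 ± 0.19 (SE, edgeR, Benjamini-Hochberg adjusted p = 0.00433), with 3.12 under ERCC size factors. This call was lost without replicate 1 or 2 at 10 cycles or replicate 1 or 2 at 14 cycles, with log2 fold changes between 0.79 and 0.95 and edgeR and Benjamini-Hochberg adjusted p between 0.0173 and 0.0396. The count of Tbpl2 per count of Tbp was 0.0853 and 0.0602 at 10 cycles, 0.114 and 0.155 at 14 cycles, 0.00421 and 0.0139 at 18 cycles, 0.00603 and 0.00924 in 1/2, 0.0239 and 0.0356 in 1/4, with 0.0667 and 0.0497 in 1/8. Whole oocytes at 18 cycles and 1/2 overlapped at the low end. Exons of Pdcd2 on the other strand overlap 19.0% of the exon bases of Tbp. Tbpl1, a further relative of TBP, lay between 2.50 and 15.9 CPM over the 12 libraries, with its highest levels in 1/8, at 15.9 and 13.5, and was called in no median-ratio comparison. Exons of Slc2a12 on the other strand overlap 12.4% of its exon bases, and the strand setting of the counting is not settled.

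GTF2A1L is a germ cell form of the large subunit of TFIIA, which steadies TBP-like proteins on DNA. Gtf2a1l (ENSMUSG00000024154, chr17:88668660-88715152) was at 108 and 93.5 CPM at 10 cycles, 151 and 156 at 14 cycles, with 42.4 and 22.9 at 18 cycles. It was at 48.9 and 41.4 CPM in 1/2, 56.6 and 89.3 in 1/4, with 94.5 and 91.1 in 1/8. Oocytes at 18 cycles and 1/2 were lowest and overlapped, and 1/8 overlapped with 10 cycles. The log2 fold change was -1.34 ± 0.24 against 10 cycles (SE, edgeR, Benjamini-Hochberg adjusted p = 0.00185) and -1.91 ± 0.25 against 14 cycles (SE, edgeR, Benjamini-Hochberg adjusted p = 0.000272). Under ERCC scaling the sign turned to 0.97 and 0.41, which are 0.98 and 1.56 below the medians of all genes. The call against 10 cycles was lost without replicate 1 or 2 at 10 cycles, with -1.28 and -1.41 and edgeR and Benjamini-Hochberg adjusted p of 0.0178 and 0.0140, and the call against 14 cycles held in 6 of 6 fits. In 1/8 against whole oocytes it was 1.30 ± 0.35 (SE, edgeR, Benjamini-Hochberg adjusted p = 0.00778), with -3.73 under ERCC size factors. That call passed the threshold in 0 of 8 fits with 1 library left out, whichever of the 8 libraries it was, with edgeR and Benjamini-Hochberg adjusted p between 0.0103 and 0.0875 and log2 fold changes between 0.98 and 1.73. The 0.98 was without replicate 2 of the whole oocytes.

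Gtf2a1, the widely expressed counterpart of Gtf2a1l, lay between 154 and 365 CPM over the 12 libraries and was called in no median-ratio comparison. The count of Gtf2a1l per count of Gtf2a1 was 0.330 and 0.392 at 10 cycles, 0.414 and 0.513 at 14 cycles, 0.276 and 0.0926 at 18 cycles, 0.257 and 0.170 in 1/2, 0.195 and 0.344 in 1/4, with 0.309 and 0.272 in 1/8. The 14-cycle libraries were above all others, and those at 10 cycles overlapped with 1/4 only. Gtf2a2, the small subunit of TFIIA, was higher at 18 than at 10 cycles by 0.87 ± 0.20 (SE, edgeR, Benjamini-Hochberg adjusted p = 0.00678) and than at 14 cycles by 0.81 ± 0.20 (SE, edgeR, Benjamini-Hochberg adjusted p = 0.00976), and by 3.07 and 3.04 under ERCC size factors. Both calls were lost without replicate 1 or 2 at 10 cycles, replicate 1 or 2 at 14 cycles, or replicate 2 at 18 cycles. The log2 fold changes were then between 0.71 and 1.00, with edgeR and Benjamini-Hochberg adjusted p between 0.0139 and 0.0873.

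TAF4B is a gonad-enriched form of a TFIID subunit. Taf4b (ENSMUSG00000054321, chr18:14783245-14900359) was at 57.7 and 50.8 CPM at 10 cycles, 59.1 and 68.5 at 14 cycles, with 97.8 and 51.6 at 18 cycles. It was at 63.1 and 73.1 CPM in 1/2, 154 and 215 in 1/4, with 43.2 and 58.8 in 1/8. The 1/4 libraries were above all the other 10, and the other groups overlapped with each other in part. In 1/4 against whole oocytes the log2 fold change was 1.16 ± 0.32 (SE, edgeR, Benjamini-Hochberg adjusted p = 0.0723), with -1.68 under ERCC size factors, which is 1.01 above the median of all genes. With whole oocytes at 10 and 14 cycles as the reference, it was 1.78 and called higher (edgeR, Benjamini-Hochberg adjusted p = 6.53e-06). With that reference and ERCC size factors it was 1.10 and not called (edgeR, Benjamini-Hochberg adjusted p = 0.0167). In 1/8 against 1/4, chosen after seeing the data, it was -1.93 ± 0.33 (SE, edgeR, Benjamini-Hochberg adjusted p = 0.000729), and -4.13 with ERCC size factors. This call held in 6 of 8 fits with 1 library left out. It was lost without replicate 2 of 1/4 (-1.73, edgeR and Benjamini-Hochberg adjusted p = 0.0113) and without replicate 1 of 1/8 (-1.68, adjusted p = 0.0158). At 18 against 10 cycles it was 0.73 ± 0.26 (SE, edgeR, Benjamini-Hochberg adjusted p = 0.0476), with 3.06 under ERCC size factors. Without replicate 2 at 18 cycles it was 1.07 (edgeR, Benjamini-Hochberg adjusted p = 0.00373), and against 14 cycles it was then 0.88 (adjusted p = 0.00897). The count of Taf4b per count of Taf4, its widely expressed counterpart, was 2.51 and 4.06 in 1/4 and between 0.746 and 2.09 in the other 10 libraries, with 2.09 in replicate 1 at 18 cycles.

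**Figure D2:**
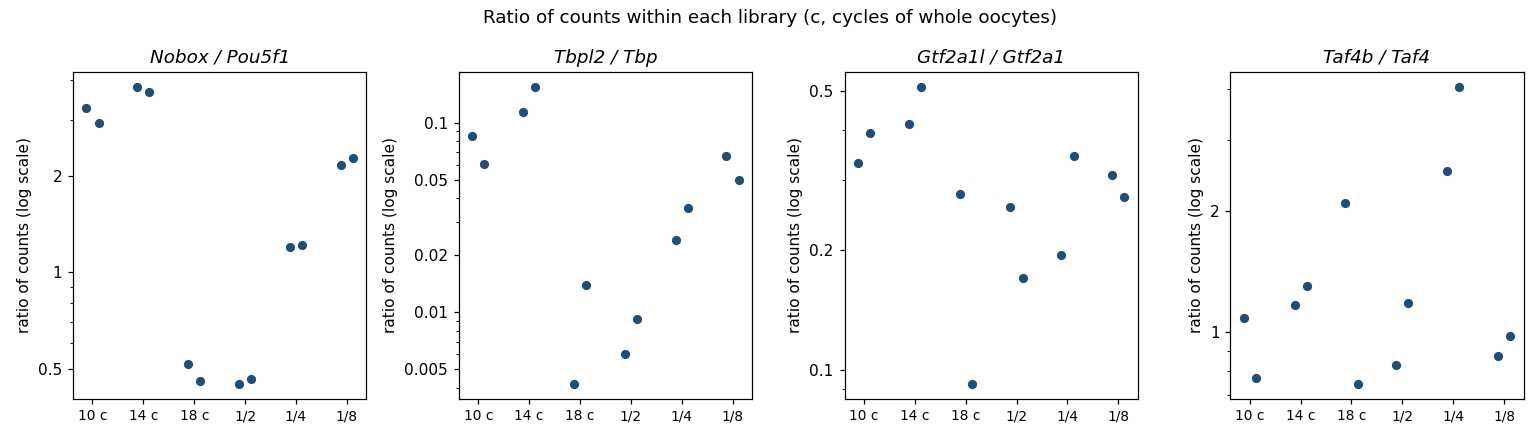
Count of a gene divided by the count of another gene in the same library, on log axes, with 1 point per library for whole oocytes at 10, 14 and 18 cycles (10 c, 14 c, 18 c) and for 1/2, 1/4 and 1/8 of an oocyte. The Nobox to Pou5f1 ratio was 0.519 and 0.457 at 18 cycles and 2.16 and 2.28 in 1/8, and the Taf4b to Taf4 ratio was 2.51 and 4.06 in 1/4.

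Under ERCC scaling the members differed in how far they lay from the median of all genes. In 1/8 against whole oocytes the log2 fold changes were -6.01 for Pou5f1, -5.98 for Lhx8, -5.81 for Taf4b and -5.51 for Figla, below the median of -4.92. They were -3.85 for Nobox, -3.73 for Gtf2a1l, -3.57 for Sohlh2 and -2.33 for Tbpl2, above it. Of these 8 genes, Tbpl2 alone was not past the threshold (edgeR, Benjamini-Hochberg adjusted p = 0.0208), and the Sohlh2 call was lost without replicate 1 of the whole oocytes (-2.30, edgeR, Benjamini-Hochberg adjusted p = 0.0717). In 1/2 the values ran from -2.34 for Lhx8 to -0.25 for Sohlh2, and Nobox at -2.01 was 0.01 from the median. In 1/2 the 6 calls (Nobox, Figla, Lhx8, Taf4b, Pou5f1 and Gtf2a1l) were all lost without replicate 1 of the whole oocytes or without replicate 2 of 1/2, with edgeR and Benjamini-Hochberg adjusted p between 0.0130 and 0.724 and log2 fold changes between -2.15 and -0.25. The Figla call was also lost without replicate 1 of 1/4, and the Gtf2a1l call without replicate 1 of 1/2 or replicate 1 or 2 of 1/4, with adjusted p between 0.0103 and 0.0151 (edgeR, Benjamini-Hochberg) and log2 fold changes between -2.05 and -1.58. In 1/4 the Figla, Sohlh2, Taf4b and Gtf2a1l calls were lost without replicate 1 of the whole oocytes, and the last 3 of these also without replicate 1 or 2 of 1/4, with edgeR and Benjamini-Hochberg adjusted p between 0.0188 and 0.290 and log2 fold changes between -3.02 and -0.61.

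**Figure D3:**
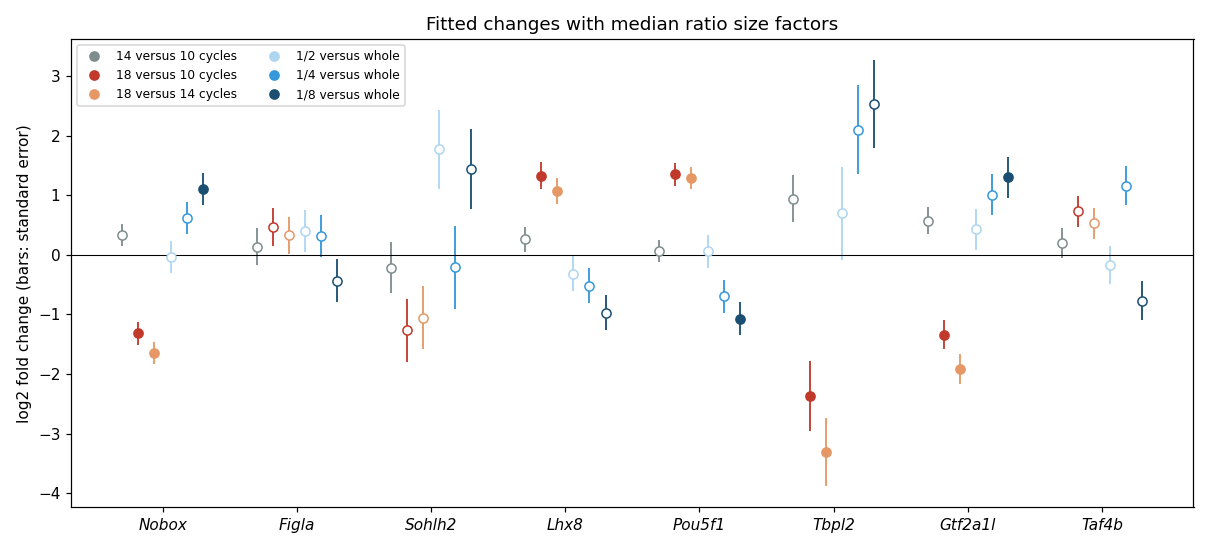
Fitted log2 fold change of 8 members with median-ratio size factors in the 3 cycle and 3 fraction comparisons, with bars of 1 standard error. Filled points have an edgeR and Benjamini-Hochberg adjusted p under 0.01 and open points do not, and Sohlh1 is left out for its few counts. At 18 against 10 cycles Nobox was at -1.31 and Pou5f1 at 1.35, and in 1/8 against whole oocytes they were at 1.11 and -1.07. With ERCC size factors Nobox, Sohlh2 and Gtf2a1l changed sign at 18 cycles, and all 8 were negative in 1/8.

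The rest of the machinery and program of these factors was described with 3 lists. They were set by symbol from general knowledge, without a table of targets or partners. Over all genes, 12.3% were higher and 10.8% lower at 18 cycles compared with 10. Of 19 genes for general initiation factors, 4 were higher and 2 lower (edgeR, Benjamini-Hochberg adjusted p under 0.01), and 15 were higher and 0 lower with ERCC size factors, where 47.6% of genes were higher. The median log2 fold change was 0.18 against -0.29 over all genes, and 2.36 against 1.96 with ERCC size factors. The 4 became 1 without replicate 1 at 10 cycles and 2 without replicate 2 at 10 cycles or either library at 14 cycles. The 2 became 1 without replicate 1 at 10 cycles or replicate 1 at 18 cycles. The calls of the TFIID subunits Taf10 and Taf9b at 18 against 10 cycles and in 1/8 held in every fit with 1 library left out. At 18 against 10 cycles Taf10 was at 2.24 ± 0.22 and Taf9b at -1.71 ± 0.23 (SE, edgeR, Benjamini-Hochberg adjusted p = 9.07e-05 and 0.000388), and Taf9b turned to 0.57 with ERCC size factors. Taf5 was at 1.30 ± 0.21 and Taf1, also of TFIID, at -1.71 ± 0.29 (SE), and Taf1 turned to 0.53 with ERCC size factors. The Taf5 call was lost without replicate 1 at 10 cycles (1.11, edgeR and Benjamini-Hochberg adjusted p = 0.0136). The Taf1 call was lost without replicate 1 at 10 cycles (-1.57, edgeR and Benjamini-Hochberg adjusted p = 0.0125) or replicate 1 at 18 cycles (-1.44, adjusted p = 0.0102). Against 14 cycles 5 were higher and 3 lower, where 12.6% and 10.7% of genes were, with a median of -0.10 against -0.29 over all genes. ERCC size factors gave 15 higher and 0 lower, where 47.9% of genes were higher, with a median of 2.18 against 1.97, and the lower ones turned. The calls of Taf10, Taf5 and Taf9b against 14 cycles held in 6 of 6 fits with 1 library left out. Those of Taf3, Tbp, Gtf2a2, Taf13 and Taf1 were lost without replicate 1 or 2 at 14 cycles, and all of these but Taf3 without replicate 1 or 2 at 10 cycles. Taf13 and Taf1 were also lost without replicate 1 at 18 cycles, and Gtf2a2 without replicate 2 at 18 cycles, with edgeR and Benjamini-Hochberg adjusted p between 0.0126 and 0.0873 over these fits. In 1/2 and 1/4 against whole oocytes 0 of 19 were called by edgeR with median-ratio size factors. In 1/8, where 6.96% of genes were higher and 8.71% lower, 1 was higher, Taf9b at 1.82 ± 0.33, which turned to -3.14 with ERCC size factors, and 2 were lower, with Taf10 at -1.65 ± 0.29 (SE, edgeR, Benjamini-Hochberg adjusted p = 0.000433 and 0.000283). The other was Taf5, whose call was lost without replicate 1 of 1/8 (-1.22, edgeR and Benjamini-Hochberg adjusted p = 0.0125). With ERCC size factors 14 of 19 were lower in 1/2, and 19 of 19 in 1/4 and 1/8, where 52%, 69.7% and 87.5% of genes were lower. The 14 became 3 without replicate 1 of the whole oocytes, 1 without replicate 2 of 1/2, and 9 without replicate 1 of 1/2 or replicate 1 of 1/4. The 1/8 libraries against 1/2, chosen after seeing the data, had 1 higher and 3 lower, where 2.07% and 3.88% of genes were. Against 1/4 they had 0 and 2, where 1.54% and 3.43% of genes were. ERCC scaling put 17 and 15 lower and 0 higher, where 71.8% and 60.2% of genes were lower. These median-ratio counts became 0 without replicate 1 or 2 of 1/8, and without replicate 1 of the fraction compared with. The higher one was also lost without replicate 2 of 1/2 or either library of 1/4, and the 2 became 1 without replicate 2 of 1/4. By mean CPM over the 12 libraries Gtf2b, Taf3 and Taf7 were the most abundant, in an order that differed between libraries.

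The next list held 19 oocyte genes set down as targets of these factors or as part of the same program. At 18 cycles compared with 10, 2 were higher and 16 lower, where 12.3% and 10.8% of all genes were. With ERCC size factors 4 were higher and 0 lower, where 47.6% of genes were higher. The median log2 fold change was -1.44 against -0.29 over all genes, and turned to 0.79 against 1.96 with ERCC size factors. Against 14 cycles 2 were higher and 17 lower, where 12.6% and 10.7% of genes were, and again 4 and 0 with ERCC size factors, where 47.9% were higher. The genes that were higher were Fgf8 (3.18 ± 0.34), a growth factor gene, and Zar1 (2.09 ± 0.20), which encodes an RNA-binding protein of the maternal store (SE, against 10 cycles), with 5.27 and 4.33 under ERCC size factors. The largest falls were in Oosp1 (-2.46 ± 0.31), Rfpl4 (-2.30 ± 0.33) and Oosp2 (-2.26 ± 0.23), which were -0.37, -0.21 and -0.04 and not past the threshold with ERCC size factors. In 1/2 and 1/4 against whole oocytes 0 of 19 were called by edgeR with median-ratio size factors. In 1/8, 13 were higher and 2 lower, where 6.96% and 8.71% of genes were, with a median of 1.25 against 0.02 over all genes. All 19 were lower with ERCC size factors, where 87.5% of genes were, with a median of -3.75 against -4.92. The 13 became 8 without replicate 1 or replicate 2 of the whole oocytes and 6 without replicate 1 of 1/8. In 1/8 Oosp1 was at 2.75 ± 0.33, Oosp2 at 2.56 ± 0.32 and Rfpl4 at 2.25 ± 0.33 (SE), which turned to -2.10, -2.41 and -2.57 with ERCC size factors. Fgf8 was at -2.18 ± 0.40 and Zar1 at -1.68 ± 0.28 (SE), with -6.98 and -6.63 under ERCC size factors. The Fgf8 call was lost without replicate 2 of the whole oocytes (-1.52, edgeR and Benjamini-Hochberg adjusted p = 0.0119) or replicate 2 of 1/8 (-1.76, adjusted p = 0.0128), and the other 4 calls held in 8 of 8 fits. With ERCC size factors 14 of 19 were lower in 1/2 and 19 in 1/4, where 52% and 69.7% of genes were lower. The 14 became 3 without replicate 1 of the whole oocytes or replicate 2 of 1/2, and the 19 in 1/4 became 10 without replicate 1 of the whole oocytes and 12 without replicate 2 of 1/4. Against 1/2, chosen after seeing the data, 8 were higher and 2 lower in 1/8, where 2.07% and 3.88% of genes were, with a median of 0.96, and 0 and 16 with ERCC size factors, where 71.8% were lower. The 8 became 1 without replicate 1 of 1/2 and 5 without replicate 1 of 1/8, and the 2 became 0 and 1 without replicate 1 of 1/2 or replicate 2 of 1/8. Against 1/4, chosen at the same time, 4 were higher and 1 lower, where 1.54% and 3.43% of genes were, with a median of 0.35, and 0 and 14 with ERCC size factors, where 60.2% were lower. The 4 became 2 and the 1 became 0 without replicate 1 of 1/4 or replicate 2 of 1/8. By mean CPM over the 12 libraries Gdf9, Zar1 and Padi6 were the most abundant, but the order differed by group. Gdf9 and Padi6 led at 10 and 14 cycles, Zar1 led at 18 cycles and in 1/2 and 1/4, and H1foo and Ooep led in replicates 1 and 2 of 1/8.

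A further 13 genes were listed as partners of the members or as genes related to them. The filter kept 12 in the cycle fit and 11 in the fraction fit, and the pluripotency gene Nanog had 0 counts in all libraries. At 18 against 10 cycles 2 were higher and 1 lower, where 12.3% and 10.8% of all genes were, and 9 were higher and 0 lower with ERCC size factors, where 47.6% of genes were higher. The median log2 fold change was 0.12 against -0.29 over all genes, and 2.35 against 1.96 with ERCC size factors. Tcf3 (1.78 ± 0.22), which encodes an E protein that pairs with basic helix-loop-helix factors, and Dynll1 (1.70 ± 0.23) were higher (SE, edgeR, Benjamini-Hochberg adjusted p = 0.000247 and 0.000399), with 4.01 and 4.02 under ERCC size factors. Sub1, which encodes a transcription coactivator, was at -0.87 ± 0.20 (SE, edgeR, Benjamini-Hochberg adjusted p = 0.0065), and turned to 1.37 with ERCC size factors. The Tcf3 call held in 6 of 6 fits with 1 library left out, and the Dynll1 call was lost without replicate 2 at 10 cycles (1.69, edgeR and Benjamini-Hochberg adjusted p = 0.0107). The Sub1 call was lost in 6 of 6 fits, whichever of the 6 libraries was left out, with log2 fold changes between -1.02 and -0.71 and edgeR and Benjamini-Hochberg adjusted p between 0.0108 and 0.0534. Against 14 cycles 3 were higher (Dynll1, Tcf3 and Klf4) and 2 lower (Tcf4 and Sub1), where 12.6% and 10.7% of genes were. With ERCC scaling 10 were higher and 0 lower, where 47.9% of genes were higher, and Sub1 turned to 1.46. The calls of Dynll1 and Tcf3 held in 6 of 6 fits, those of Klf4 and Sub1 were lost in 6 of 6, and that of Tcf4 without any 1 of the libraries at 14 or 18 cycles. The edgeR and Benjamini-Hochberg adjusted p lay between 0.0118 and 0.0800 in these fits. In 1/2 and 1/4 against whole oocytes 0 were called by edgeR with median-ratio size factors. In 1/8, where 6.96% of genes were higher and 8.71% lower, Sub1 was higher (1.30 ± 0.28) and turned to -3.68 with ERCC size factors, and Tcf3 (-1.62 ± 0.38) and Dynll1 (-1.16 ± 0.28) were lower (SE). The Sub1 and Tcf3 calls were lost without replicate 1 or 2 of the whole oocytes, and the Tcf3 call also without replicate 2 of 1/8, with edgeR and Benjamini-Hochberg adjusted p between 0.0115 and 0.0351. Without replicate 1 of 1/8 Tcf3 was at -2.71. The Dynll1 call was lost without replicate 1 of the whole oocytes or replicate 1 or 2 of 1/8, with log2 fold changes between -1.20 and -0.85 and edgeR and Benjamini-Hochberg adjusted p between 0.0202 and 0.0548. With ERCC size factors 8 of 11 were lower in 1/2, 9 in 1/4 and 11 in 1/8, where 52%, 69.7% and 87.5% of genes were lower, and the 8 became 3 without replicate 1 of the whole oocytes or replicate 2 of 1/2. For 1/8 against 1/2, chosen after seeing the data, edgeR called 0, where 2.07% of genes were higher and 3.88% lower. Against 1/4 it called 1 lower (Tcf12, -1.76), where 1.54% of genes were higher and 3.43% lower. That call was lost without any 1 of the libraries of 1/4 or 1/8. ERCC scaling gave 10 and 9 lower and 0 higher in these comparisons, where 71.8% and 60.2% of genes were lower. By mean CPM Sall4, Dynll1 and Sub1 were the most abundant of this list, and Dynll1 led at 18 cycles and Sall4 in the other groups.

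Base composition moved with the direction of change over all genes. At 18 against 10 cycles the median GC content of the exons was 53.7% for the genes that were higher and 45.4% for those that were lower, against 49.0% for all genes tested. For 1/8 against whole oocytes it was 45.0% for the genes that were higher and 55.2% for those that were lower, against 49.4% for all tested. The members had 58.1% (Sohlh1), 57.6% (Pou5f1), 52.6% (Nobox), 52.4% (Figla), 50.6% (Lhx8), 50.3% (Gtf2a1l), 48.3% (Sohlh2), 45.7% (Taf4b) and 43.1% (Tbpl2). Of the members called at 18 against 10 cycles, Pou5f1 and Lhx8, above the median GC content of the genes tested, were higher, and Tbpl2, below it, was lower, while Nobox and Gtf2a1l, above it, were lower. Pou5f1 was lower in 1/8 against whole oocytes, and Nobox and Gtf2a1l were higher. The part of base composition in the results was not tested.

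Likeness of pattern was measured as Pearson's r of log2(CPM + 1) over the 12 libraries, which differ in depth and fall into 6 groups. It was computed for the members and 8859 genes with at least 10 CPM on average. Nobox was most like Svopl (r = 0.993), Mrap (0.989) and Ttc23 (0.985), Gtf2a1l most like Sf3b6 (0.976), Lancl1 (0.975) and 9930038B18Rik (0.968), and Pou5f1 most like Mrto4 (0.986), C630004M23Rik (0.984) and Polr2c (0.983). Lhx8 was most like Sin3b (0.987), Wdr18 (0.972) and Opa3 (0.966), Figla most like Tmem9 (0.921), Ift20 (0.911) and Appbp2os (0.906), and Taf4b most like Tomm70a (0.960), Tob2 (0.916) and Plekhf2 (0.915). Between members r was 0.943 for Nobox and Gtf2a1l, 0.850 for Lhx8 and Pou5f1, -0.714 for Nobox and Lhx8, and -0.893 for Nobox and Pou5f1. For Gtf2a1l it was -0.833 with Pou5f1 and -0.637 with Lhx8. Pairs with Figla or Taf4b ran from -0.254 (Nobox and Taf4b) to 0.673 (Figla and Taf4b). These values are a description and carry no test.

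The promoter sequences available here (RefSeq, GRCm38.p6) covered 8 of the 9 members, and that of Taf4b was not examined. In the 250 bases before the start, both strands were searched for CANNTG, the E-box to which basic helix-loop-helix proteins bind, for TAATTG and TAATTA, which homeobox proteins bind, and for TATAAA, the TATA box. CANNTG was in 66.2% of 32851 promoters, TAATTG in 7.17%, TAATTA in 4.84% and TATAAA in 12.4%. CANNTG occurred 2 times for Nobox, 2 for Figla, 5 for Sohlh1, 1 for Sohlh2, 4 for Tbpl2, 1 and 2 for the 2 promoters of Pou5f1, and 0 for Lhx8 and Gtf2a1l. The other 3 motifs occurred 0 times in these windows. A match describes letters only. The 3 members called lower at 18 cycles with median-ratio size factors were Nobox, Tbpl2 and Gtf2a1l. With ERCC size factors Nobox and Gtf2a1l changed sign, and none of these was called. The windows of Lhx8 and Pou5f1, the members called higher, hold annotated exon bases and are not shown for that reason. The 150 bases before the start of Nobox, Tbpl2 and Gtf2a1l are shown 5′ to 3′ on the strand of the gene. CANNTG is in capitals in these sequences. They lie at chr6:43309555-43309704 on the minus strand for Nobox, chr2:24096596-24096745 on the minus strand for Tbpl2, and chr17:88668510-88668659 on the plus strand for Gtf2a1l.
Nobox: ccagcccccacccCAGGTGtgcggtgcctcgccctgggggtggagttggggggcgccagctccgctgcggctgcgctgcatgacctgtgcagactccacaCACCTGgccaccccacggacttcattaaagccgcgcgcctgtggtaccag
Tbpl2: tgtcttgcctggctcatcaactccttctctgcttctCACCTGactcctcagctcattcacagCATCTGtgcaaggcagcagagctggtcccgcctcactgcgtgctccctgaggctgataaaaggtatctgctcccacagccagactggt
Gtf2a1l: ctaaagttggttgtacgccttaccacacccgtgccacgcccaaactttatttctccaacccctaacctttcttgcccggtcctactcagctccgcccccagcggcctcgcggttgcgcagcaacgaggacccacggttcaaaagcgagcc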

How the data were processed

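The authors deposited raw HTSeq counts per gene and per ERCC molecule, in the unit count, without normalization or removal of duplicates. The submitters' notes give cutadapt 2.5, STAR 2.7.2a and HTSeq 0.9.1. The methods give other versions of these tools, and which set made the counts is not settled. The share of reads on no feature was 10.5% and 10.6% at 10 cycles, 10.8% and 10.4% at 14 cycles, 7.07% and 10.1% at 18 cycles, and 6.90% to 8.32% in the fractions. The part of this share in the results was not tested. The filter kept genes and ERCC molecules that reached 5 counts in 2 or more libraries of a fit. The fits were made with edgeR 4.0.16 in R 4.3.3 (quasi-likelihood test, Benjamini-Hochberg over all genes tested, threshold 0.01), with groups only. One fit held the 6 whole oocytes, another the 8 libraries at 18 cycles. By the methods the fraction libraries came from 2 oocytes, so they are not independent samples. The fit treated them as independent, and its p-values do not measure spread between oocytes for the fractions. Median-ratio size factors used the genes and ERCC molecules kept, a table settled after seeing the data. ERCC size factors used the ERCC molecules alone. DESeq2 1.42.0 was an alternative, and tables were made with Python 3.11.15, pandas 2.3.3, numpy 2.4.6 and scipy 1.17.1.

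The genes named are the 9 members, 5 widely expressed counterparts and, from each list, up to 3 called genes with the largest change in each direction and the 3 with the highest mean CPM. Likeness was measured for members with at least 10 CPM on average. The members and lists were chosen with earlier results of these data known. The p-values measure the spread between these samples only. Intervals and floors cover counting error only, because reads from amplified cDNA do not count molecules.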

Additional observations from a re-analysis of the deposited data

How the results depend on the processing

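The members and lists were chosen with earlier results of these data known. The gene table of the main median ratio was settled after seeing the data, and most alternatives were set before the fits described here. Of the alternatives tried, 4 were chosen after seeing the data. These were the 1/8 fraction against 1/2 and 1/4 with its own alternatives, 2 other gene tables for the median ratio (genes without ERCC molecules, before or after the filter), and the principal transcript as the length. The count of members called stayed the same with these gene tables. Over all settings, 1191 of the member log2 fold changes kept direction and side of the threshold. Another 88 fell short of it, 21 newly passed it and 53 turned. The 1191 include results that were not called and stayed so, and so do not measure how firm the calls were. In each case below the cause was not tested.

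DESeq2 called 2 genes between 14 and 10 cycles (1 higher, 1 lower), 133 in 1/2 (85 higher, 48 lower), 239 in 1/4 (68 higher, 171 lower) and 1391 in 1/8 against 1/2. Without a filter edgeR called 9 genes between 14 and 10 cycles (2 higher, 7 lower), 217 in 1/2 and 206 in 1/4. For 1/8 it then called 1345 against 1/2 and 1216 against 1/4. With at least 10 counts required in every library, 9073 genes were tested in the cycle fit and 8330 in the fraction fit. At 18 against 10 cycles 22% of these were higher and 22.4% lower, and against 14 cycles 21.7% and 22.1%. In 1/8 against whole oocytes 13.2% were higher and 12.7% lower. TMM size factors gave 1 gene in 1/2 (higher). For 1/8 against 1/2 they gave 806 genes (333 higher, 473 lower) and 1 member (higher), where 2.25% of genes were higher and 3.2% lower.

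ERCC size factors gave 8348 genes at 18 against 10 cycles (all higher), 8400 against 14 cycles (2 lower), 10622 in 1/8 against 1/2 and 8895 in 1/8 against 1/4 (all lower). They gave 8 members against 1/2 and 6 against 1/4, all lower. The 8 include Sohlh1, which had 8 and 1 counts in 1/2 and 0 in 1/8, and which passed the filter only through libraries where it was high. Directions turned at 18 against 10 cycles for Nobox (0.94), Sohlh2 (1.07) and Gtf2a1l (0.97), and against 14 cycles for Nobox (0.62), Sohlh2 (1.26) and Gtf2a1l (0.41). They turned in 1/8 against 1/2 for Nobox (-1.85), Tbpl2 (-1.10) and Gtf2a1l (-2.12), and in 1/8 against 1/4 for Nobox (-1.73), Sohlh2 (-0.54), Tbpl2 (-1.77) and Gtf2a1l (-1.89).

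With whole oocytes at 10 and 14 cycles as the reference and median-ratio size factors, 3799 genes were called in 1/2 (2210 higher, 1589 lower), 2488 in 1/4 (1521 higher, 967 lower) and 0 in 1/8. The members called were 5 in 1/2 (2 higher, 3 lower), 2 in 1/4 (1 higher, 1 lower) and 0 in 1/8. In 1/2, Lhx8 (0.90), Taf4b (0.46), Tbpl2 (-2.07) and Gtf2a1l (-1.20) turned. In 1/4, Nobox (-0.87), Lhx8 (0.68), Pou5f1 (0.62), Tbpl2 (-0.68) and Gtf2a1l (-0.64) turned. In 1/8, Nobox (-0.39), Lhx8 (0.22), Pou5f1 (0.24), Tbpl2 (-0.24) and Gtf2a1l (-0.35) turned. With this reference and ERCC size factors, 2566 genes were called in 1/2 (1890 higher, 676 lower) and 2249 in 1/4 (284 higher, 1965 lower), with 2 members in 1/2 (1 higher, 1 lower) and 1 in 1/4 (lower). There Figla (0.98), Sohlh1 (2.48), Sohlh2 (0.81), Lhx8 (1.08), Taf4b (0.61) and Pou5f1 (1.58) turned in 1/2, and Figla (0.0284), Lhx8 (0.0266) and Taf4b (1.10) in 1/4. The cycle number differs between that reference and the fractions.

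Leaving out each library in turn gave 1617 to 4008 genes and 2 to 7 members at 18 against 10 cycles, and 1811 to 3975 genes and 2 to 6 members against 14 cycles. It gave 0 to 31 genes in 1/2, 0 to 104 in 1/4, and 1096 to 2124 genes and 0 to 2 members in 1/8. For 1/8 against 1/2 it gave 83 to 925 genes and 0 to 2 members, and against 1/4, 102 to 804 genes and 0 to 1 members. With ERCC size factors it gave 1930 to 8908 genes and 0 to 6 members in 1/2, and 6703 to 10592 genes and 3 to 8 members in 1/4. A group left with 1 library was assumed to vary like the others. Directions that turned were between 14 and 10 cycles those of Sohlh1 (-0.14 to 0.47), Sohlh2 (-0.50 to 0.15) and Pou5f1 (-0.000946 to 0.12). For Figla they turned at 18 against 10 cycles (-0.27 to 0.94) and against 14 cycles (-0.41 to 0.81). In 1/2 they turned for Nobox (-0.19 to 0.11), Figla (-0.0675 to 1.15), Sohlh1 (-0.48 to 1.10), Taf4b (-0.50 to 0.28), Pou5f1 (-0.12 to 0.23) and Tbpl2 (-0.0701 to 1.60), and with ERCC size factors for Sohlh2 (-0.94 to 1.05). In 1/4 they turned for Figla (-0.15 to 1.07) and Sohlh2 (-0.57 to 0.46), and in 1/8 for Figla (-0.91 to 0.31).

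Replicate numbers of the labels do not state shared oocytes, and the deviations of same-numbered libraries correlated between -0.14 and 0.14 across genes. With the replicate number as a block, edgeR called 0 genes between 14 and 10 cycles, 4381 at 18 against 10 cycles, 4384 against 14 cycles, 73 in 1/2 (37 higher, 36 lower), 127 in 1/4 (21 higher, 106 lower) and 2643 in 1/8. With ERCC size factors the block gave 8366, 10166 and 12684 genes in 1/2, 1/4 and 1/8, and it gave 1144 genes in 1/8 against 1/2 and 972 against 1/4. The members called with the replicate block were 0, 5 and 5 in the cycle comparisons, 0, 0 and 4 in the fractions, and 6, 7 and 8 with ERCC size factors.

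Counts were few for Sohlh1 (28 in all) and for Tbpl2 at 18 cycles (3 and 5), and the part of depth in this was not tested. The whole oocytes at 18 cycles had 1611 and 1474 ERCC counts behind their ERCC size factors. Groups held 2 libraries each. Counts of Pou5f1, Tbp, Tbpl1 and, over 1.34% of its exon bases, Taf4 depend on a strand setting that is not settled.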
